A study of Mus musculus with 10 samples.

Results

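TRAF6, the kinase TAK1 and the p38 MAP kinases form a branch of TGF-beta signalling that does not pass through SMAD proteins. Its transcripts were followed here in mouse secondary palate at E14.5, around the stage at which the palatal shelves fuse. The branch was taken as 10 genes, Traf6, Map3k7, Tab1, Tab2, Map2k3, Map2k6, Mapk14, Mapk11, Mapkapk2 and Atf2. Every probe set whose platform annotation gives exactly 1 symbol, current or former, among these genes was kept, which gave 32 of the 45101 probe sets on the array and 10 of 18194 genes. Every one of the 10 had at least 1 probe set.

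In this branch the ubiquitin ligase TRAF6 associates with the activated TGF-beta receptor complex and activates the kinase TAK1, which works bound to the adaptor proteins TAB1 and TAB2. TAK1 phosphorylates the kinases MKK3 and MKK6, and these phosphorylate the p38 kinases, which act on the kinase MK2 and on transcription factors such as ATF2. In the palate, loss of the type II receptor in neural crest cells causes a cleft, and work on this mouse has asked whether signalling through the p38 branch contributes to it. The branch is switched on and off by ubiquitin chains and phosphorylation, which an RNA array does not measure, so the values below are transcript levels and not kinase activity.

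The mutant group was Tgfbr2fl/fl;Wnt1-Cre, in which Wnt1-driven Cre recombinase acts in neural crest cells and removes the floxed part of Tgfbr2, the gene of the type II TGF-beta receptor. The control group was Tgfbr2fl/fl without Cre by its genotype label, although its titles say wildtype, so both groups carry the floxed alleles. Each group had 5 arrays of total RNA, the strain label was C57B6, and the labels leave embryo sex undetermined. On the log2 scale the Y-linked gene Eif2s3y read 9.2, 9.0, 9.3, 9.1 and 5.1 in mutant replicates 1 to 5. In control replicates 1 to 5 it read 9.1, 3.2, 3.3, 9.0 and 3.2, so its high values were split unevenly between the groups. Epithelium, skeletal muscle cells, the inner lining of vessels and blood in the dissected palate do not come from the neural crest and keep the receptor. Nothing in the labels ties each sample to its own embryo, and p-values measure only the spread between these samples, which may be technical.

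The deposited values are log2 values from RMA with 1 decimal, and the array medians were 6.4 or 6.5. The 8 palate mesenchyme markers (Osr2, Shox2, Prrx1, Pdgfra, Msx1, Meox2, Barx1 and Tbx22) had means of 8.9 to 12.3, well above the array medians. Among them Tbx22 and Barx1 differed between mutant and control by 0.62 and -0.34 (limma adjusted p = 0.0183 and 0.0325 over genes). No marker passed a limma adjusted p of 0.05 in the lists for epithelium, endothelium, macrophages, erythroid cells, cartilage, or nerve and glia. Markers of ciliated epithelium and of skeletal muscle moved with genotype. Of 6 markers of ciliated epithelium 5 were higher in the mutant, and their median deviation was 0.29 to 0.78 in mutant and -1.17 to 0.08 in control arrays. Of 9 skeletal muscle markers 7 were lower, with median deviations of -1.59 to 0.58 in mutant and 0.49 to 1.49 in control arrays. In both lists 1 marker was dim (Dnah5 and Myf5), that is, among the lower 40% of probe sets. Control replicate 1 stood slightly apart: it correlated at 0.985 to 0.989 with the other arrays, against 0.989 to 0.996 among the other 9, and it was the lowest array, ties included, for 11 of the 32 branch probe sets and the highest for 9. In bulk tissue, fewer cells of a type and less RNA per cell cannot be told apart.

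No transcript of the branch passed the test between mutant and control palate. By limma, 0 of the 32 probe sets passed an adjusted p of 0.05, against 3.25% of all 45101 probe sets, and 0 of the 10 genes passed when each was represented by its brightest probe set, against 8.26% of all genes (2.90% higher and 5.36% lower). At an unadjusted p under 0.05 there were 6 of 32 (18.8%), 3 higher and 3 lower, against 19.6% of all probe sets, and 2 of the 10 genes (20.0%), against 25.2% of all genes. In an exact two-sided permutation test 4 of 32 had p under 0.05 before adjustment and none after it, but there the smallest adjusted p over all probe sets was 0.163, so no call was possible. The mutant and control arrays overlapped for every branch probe set. They were apart for only 4.86% of all probe sets, so overlap in all 32 is not a clear contrast. Nor is the absence of calls in the branch, since only 3.25% of all probe sets and 8.26% of all genes were called. The median log2 difference of the 32 was -0.03, with a median size of 0.08, beside 0 and 0.10 over all probe sets.

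The arrays were precise enough to bound most of these differences. For 29 of the 32 probe sets the 95% confidence interval of the difference, not adjusted for the number of probe sets, lay within 1.5-fold in either direction (0.58 on the log2 scale). This held for 88.0% of all probe sets, and for 21 of the 24 branch probe sets that were not dim (87.5%). The exceptions were 1 probe set each of Map2k6, Mapk14 and Atf2. Of the 32, 8 were dim, and none of those was the brightest of its gene. Levels of different probe sets are not compared, since each has its own probe affinity.

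**Figure D1:**
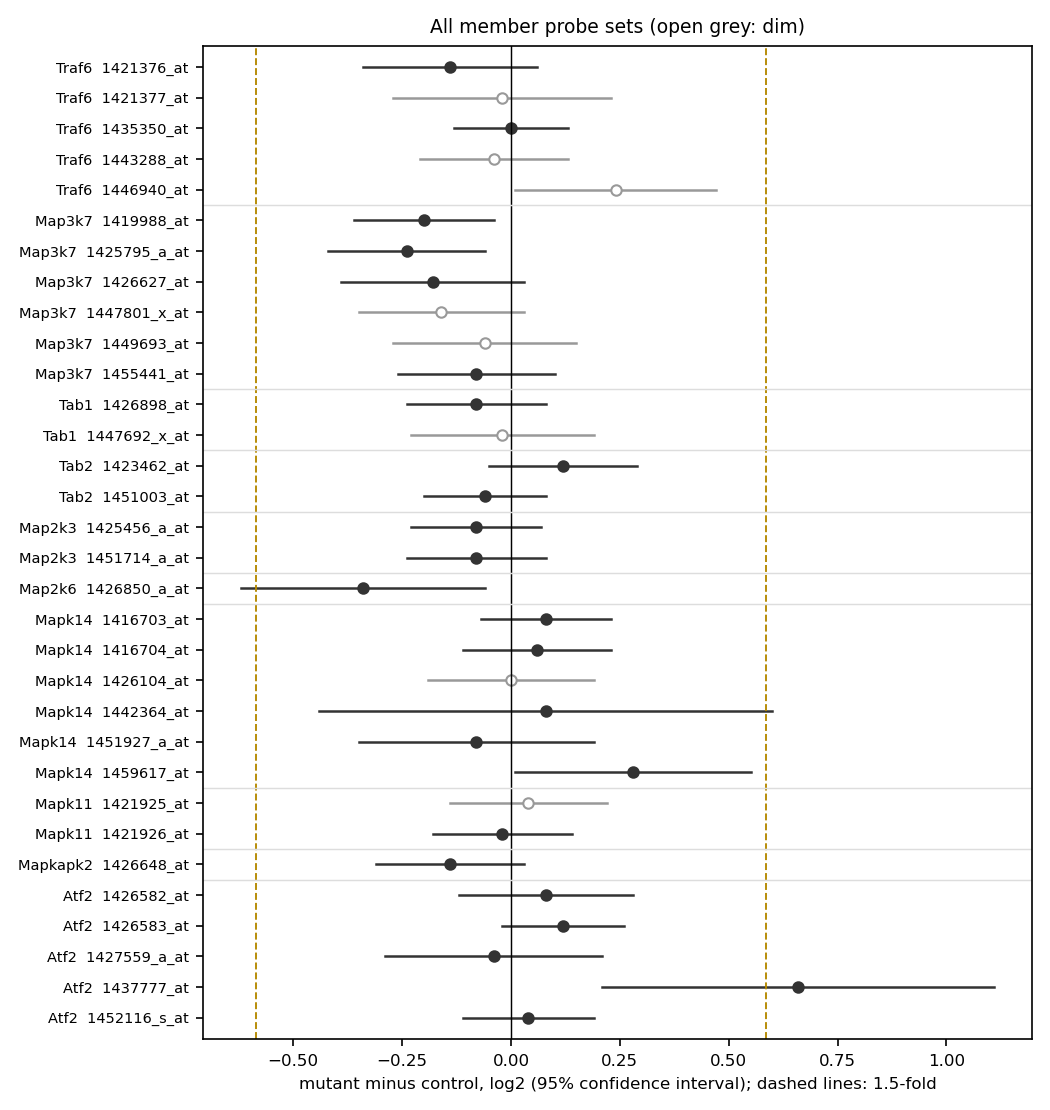
Difference between mutant and control (log2, x axis) for each of the 32 probe sets of the 10 branch genes (y axis), with 95% confidence intervals from limma (n = 5 arrays per group). Open grey points are dim probe sets and dashed lines mark 1.5-fold. Only 3 intervals cross a dashed line, those of Map2k6 1426850_a_at, Mapk14 1442364_at and Atf2 1437777_at.

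Traf6, the ubiquitin ligase at the head of the branch, had equal means on its brightest probe set. Log2 values of 1435350_at were 7.5, 7.4, 7.5, 7.5 and 7.4 in mutant replicates 1 to 5 and 7.5, 7.5, 7.5, 7.5 and 7.3 in control replicates 1 to 5. The means were 7.46 ± 0.05 and 7.46 ± 0.09 (SD, n = 5 each), a difference of 0.00 with a confidence interval of -0.13 to 0.13. Its other 4 probe sets differed by -0.14 to 0.24 and 3 of them were dim. The upper end was the dim probe set 1446940_at, at 5.5 to 5.8 in mutant arrays and 5.5 or 5.6 in control arrays except control replicate 3 at 5.1 (limma adjusted p = 0.238). Without that array the difference was 0.15.

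Map3k7, which encodes TAK1, had probe sets that all leaned in 1 direction, as did the pairs of Tab1 and Map2k3. All 6 had a lower mean in the mutant, by 0.06 to 0.24, and none was called. The brightest, 1425795_a_at, read 8.5, 8.5, 8.3, 8.5 and 8.6 in mutant replicates 1 to 5 and 8.9, 8.5, 8.7, 8.8 and 8.7 in control replicates 1 to 5. Control replicate 2 was level with 3 mutant arrays and the other controls lay above every mutant array. The means were 8.48 ± 0.11 and 8.72 ± 0.15 (SD, n = 5 each), a difference of -0.24 with a confidence interval of -0.42 to -0.06 (limma adjusted p = 0.142 over all probe sets and 0.0917 over genes). Without control replicate 2 the gene-level difference was -0.30 and passed (limma adjusted p = 0.0418). Without each other array in turn it did not pass, with a limma adjusted p of up to 0.196. With the probe sets of each gene averaged it was -0.15 and did not pass (limma adjusted p = 0.12). The 6 probe sets read the same RNA samples and are not replicates of each other.

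The remaining Map3k7 probe sets gave smaller differences. On 1419988_at mutant arrays read 7.1, 7.1, 7.1, 7.0 and 7.3 and control arrays 7.5, 7.3, 7.2, 7.3 and 7.3, so that mutant replicate 5 reached the controls (-0.20, limma adjusted p = 0.167). On 1426627_at the difference was -0.18 and on 1455441_at it was -0.08, with adjusted p of 0.331 and 0.615 in limma. The dim 1447801_x_at and 1449693_at differed by -0.16 and -0.06, and the name ending _x_at marks a probe set that may also bind transcripts of other genes.

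The RefSeq promoter of Map3k7 was the only one among the 13 promoters of 9 branch genes found in the table (all but Tab1) to hold the letters TGACGT on either strand in the 250 bases before the transcript start that the table uses. These letters are the core of the cAMP response element that ATF2 and related factors bind, and 6.47% of all 32851 promoters in the table hold them. The first 30 bases of that window (GRCm38.p6, chr4:31963857-31963886, plus strand, positions -250 to -221 from that start) are shown because Map3k7 had the smallest adjusted p of the 10 genes, with the match, which reads on the minus strand, in capitals. They lie inside the whole span that RefSeq gives the gene, so the annotated gene begins before them.

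Map3k7: tttactACGTCAcggcgtccagtctcgcgg

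By likeness of pattern, the genes closest to Map3k7 were Usp27x, Poc1b and Dbn1. After each gene was centred on its own mean, their values differed from those of Map3k7 by a mean of 0.036, 0.042 and 0.048 on the log2 scale over the 10 arrays, out of 10921 genes compared. None of the 3 was called (-0.22, -0.22 and -0.24).

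Neither partner of TAK1 was called. Tab1, whose protein binds and activates TAK1, read 7.8, 7.8, 7.7, 7.6 and 7.6 in mutant and 7.9, 7.8, 7.8, 7.8 and 7.6 in control arrays on 1426898_at, a difference of -0.08 (confidence interval -0.24 to 0.08). Its other probe set, 1447692_x_at, was dim and differed by -0.02. Tab2, whose protein links TAK1 to ubiquitin chains, had a pair of bright probe sets that leaned in opposite directions. On 1423462_at mutant arrays read 11.2, 11.2, 11.4, 11.2 and 11.2 and controls 10.9, 11.1, 11.2, 11.2 and 11.2, so only mutant replicate 3 was above all controls (0.12, interval -0.05 to 0.29). On 1451003_at both groups ran up to 10.4, from 10.2 in the mutant and 10.3 in the control (-0.06, interval -0.20 to 0.08).

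The kinases between TAK1 and p38 gave 1 close and 1 wider result. Map2k3, which encodes MKK3, differed by -0.08 on both of its probe sets (intervals -0.24 to 0.08 on 1451714_a_at and -0.23 to 0.07 on 1425456_a_at). The brighter, 1451714_a_at, read 9.5, 9.6, 9.5, 9.3 and 9.5 in mutant and 9.7, 9.5, 9.6, 9.5 and 9.5 in control arrays, with overlap in all but the lowest and highest. Map2k6, which encodes MKK6, had 1 probe set, 1426850_a_at, at 8.0, 7.8, 7.4, 8.1 and 8.1 in mutant and 8.1, 8.2, 8.3, 8.1 and 8.4 in control arrays. Mutant replicate 3 was the lowest by 0.4, and 2 mutant arrays were level with the lowest controls.

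The means of Map2k6 were 7.88 ± 0.29 and 8.22 ± 0.13 (SD, n = 5 each). The difference was -0.34 with a confidence interval of -0.62 to -0.06, the largest of the 10 genes on their brightest probe sets. It was not called (limma adjusted p = 0.177, exact permutation p = 0.0476 unadjusted and 0.322 adjusted). Without mutant replicate 3 it was -0.22, and it was -0.22 too with the Y-linked gene Eif2s3y as a covariate (limma adjusted p = 0.273 and 0.406). Mutant replicates 2 and 3, the lowest for Map2k6, were also the lowest for the skeletal muscle markers, with median deviations of -1.59 and -1.51, against -0.81, 0.58 and -0.81 in mutant replicates 1, 4 and 5. The part of muscle content in the Map2k6 values was not tested.

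Mapk14 encodes p38 alpha, the main p38 kinase of most tissues. Its brightest probe set, 1416703_at, read 10.1, 10.4, 10.2, 10.1 and 10.2 in mutant and 10.1, 10.1, 10.2, 10.1 and 10.1 in control arrays, a difference of 0.08 (interval -0.07 to 0.23). A single mutant array, replicate 2, exceeded the highest control. Of its other 5 probe sets, 1416704_at, 1426104_at and 1451927_a_at differed by 0.06, 0.00 and -0.08.

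The other 2 Mapk14 probe sets were less even. On 1459617_at mutant arrays read 7.1, 7.3, 7.1, 6.9 and 7.6 and controls 6.7, 6.9, 7.1, 6.9 and 7.0, a difference of 0.28 (interval 0.01 to 0.55, limma adjusted p = 0.240). Mutant replicates 2 and 5 were above all controls. Without mutant replicate 5 it was 0.18, and with Eif2s3y as a covariate it was 0.44 (limma adjusted p = 0.374 and 0.0824). On 1442364_at the arrays spread widely within both groups, from 7.5 to 8.4 in the mutant and from 7.4 to 8.6 in the control, and the interval of the difference ran from -0.44 to 0.60 around 0.08. The interval of the brightest probe set was narrower than either of these. Which part of the transcript each probe set reads is not known here.

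Mapk11, encoding p38 beta, read 7.2, 7.2, 7.2, 7.1 and 7.1 in mutant and 7.2, 7.0, 7.1, 7.3 and 7.3 in control arrays on 1421926_at (-0.02, interval -0.18 to 0.14). The dim 1421925_at differed by 0.04. On both probe sets the controls ran both lower and higher than the mutants. The remaining p38 genes, Mapk12 and Mapk13, named here for completeness after their values were seen, differed by -0.22 and 0.22 and were not called (limma adjusted p = 0.233 and 0.120 over genes).

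**Figure D2:**
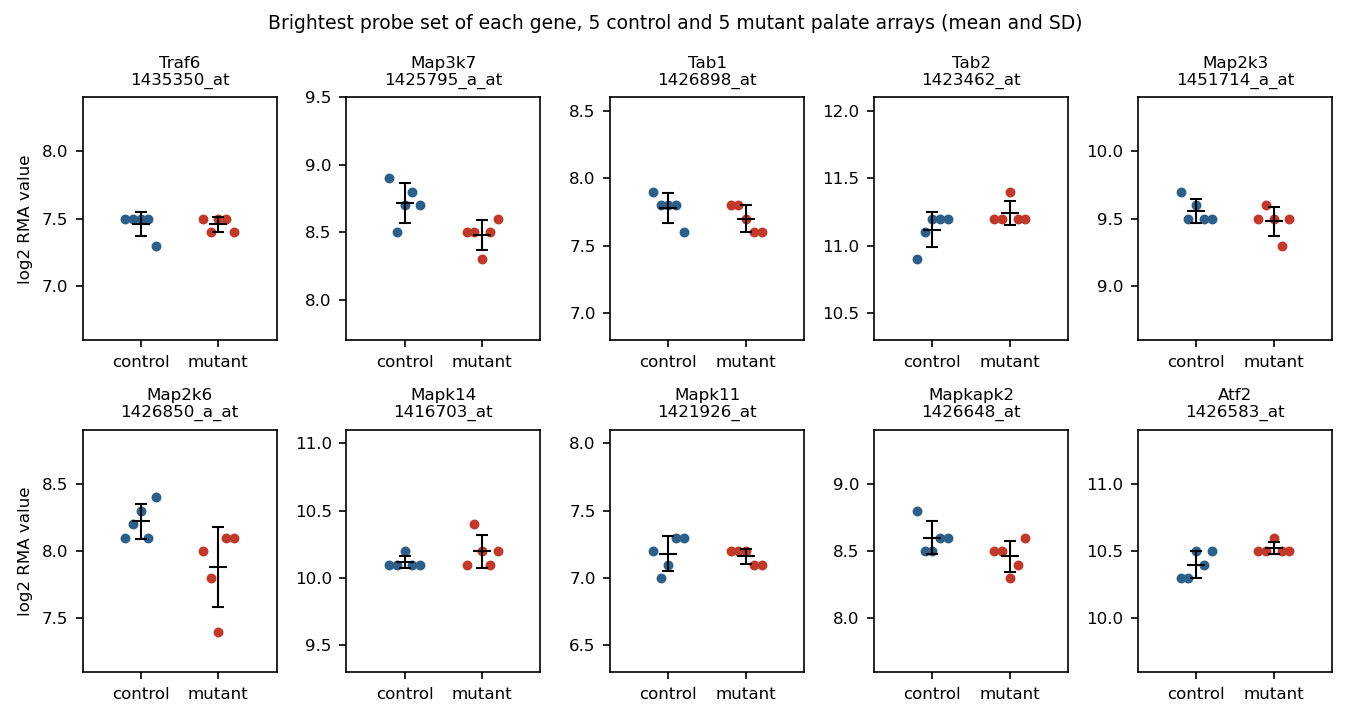
Log2 RMA value (y axis) of the brightest probe set of each of the 10 branch genes in 5 control (blue) and 5 mutant (red) palate arrays; bars are the mean and SD, and each panel spans the same range of 1.8 log2 units. The groups overlap in every panel, with the widest spread for Map2k6 in the mutant.

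Downstream of p38, Mapkapk2, which encodes the kinase MK2, read 8.5, 8.5, 8.3, 8.4 and 8.6 in mutant and 8.8, 8.5, 8.5, 8.6 and 8.6 in control arrays on its 1 probe set, 1426648_at. Mutant replicates 3 and 4 were below all controls and control replicate 1 was above all mutants. The difference was -0.14 (interval -0.31 to 0.03, limma adjusted p = 0.352).

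Atf2, a transcription factor phosphorylated by p38, had 5 probe sets, of which 4 differed by -0.04 to 0.12. The brightest, 1426583_at, read 10.5, 10.5, 10.6, 10.5 and 10.5 in mutant and 10.3, 10.3, 10.5, 10.4 and 10.5 in control arrays (0.12, interval -0.02 to 0.26). The probe sets 1426582_at, 1452116_s_at and 1427559_a_at differed by 0.08, 0.04 and -0.04.

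The fifth Atf2 probe set, 1437777_at, stood out from these. It read 6.5, 6.6, 6.7, 6.5 and 7.1 in mutant and 5.7, 6.1, 5.8, 6.8 and 5.7 in control arrays, so that control replicate 4 lay within the mutant range and the other controls below it. The difference of 0.66, or 1.58-fold (interval 0.21 to 1.11), was the largest of the 32 and was not called (limma adjusted p = 0.102, exact permutation p = 0.0397 unadjusted and 0.301 adjusted). Without control replicate 4 it was 0.85 and passed (limma adjusted p = 0.0186), and without each other array in turn it was 0.55 to 0.70 and did not. The intervals of the other 4 lay between -0.29 and 0.28. The place of this probe set along the Atf2 transcript is not known here.

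**Figure D3:**
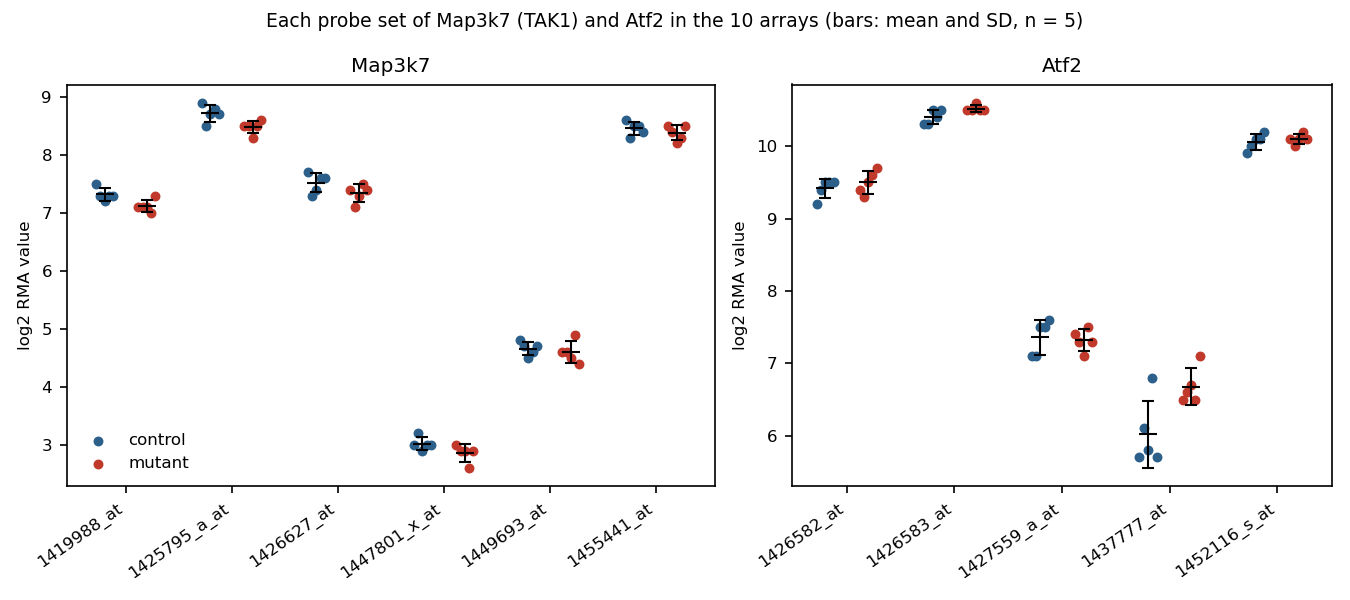
Log2 RMA value (y axis) of each probe set (x axis) of Map3k7 and Atf2 in 5 control (blue) and 5 mutant (red) arrays, with mean and SD. The 6 Map3k7 probe sets sit slightly lower in the mutant, by 0.06 to 0.24, and of the 5 Atf2 probe sets 1437777_at is the one where the mutant mean is clearly higher, by 0.66, with control replicate 4 among the mutants.

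Upstream of the branch, the ligand gene Tgfb2 was 0.94 higher and the coreceptor gene Tgfbr3 0.64 higher in the mutant on the log2 scale (limma adjusted p = 0.00322 and 0.0156 over genes). The receptor genes Tgfbr1 and Tgfbr2 differed by -0.14 and 0.08 and were not called. Where the Tgfbr2 probe set lies relative to the loxP sites is not known here, so it does not check the deletion.

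Around the 10 genes, 111 others of the pathway were measured of 123 written in 7 lists, and the other 12 were not analysed here. By limma, 2 were higher and 3 lower, or 4.50%, against 8.26% of all genes called, and the median log2 difference was -0.02, against 0.00. The count was 3 without mutant replicate 1, mutant replicate 3 or control replicate 3, and 9 with array weights. No gene was called among 10 other MAP2 kinases and MAP kinases, 20 immediate early and AP-1 genes, or 10 genes of the NF-kB arm of TAK1. The smallest p of each list belonged to Mapk13, to Ier3, an early response gene (0.46, limma adjusted p = 0.0569), and to Nfkbib, an inhibitor of NF-kB (-0.20, limma adjusted p = 0.0735). The immediate early genes Fos, Jun and Egr1, named after their values were seen, differed by 0.14, 0.12 and 0.02. Over all 20 genes of their list the differences ran from -0.38 to 0.46, with 11 higher and 8 lower in the mutant.

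Traf1 was the gene of these lists with the largest change. It encodes a TRAF protein that, unlike TRAF6, has no RING domain and so no ubiquitin ligase activity of that kind. It was the 1 called gene of 14 in the list of TRAF and ubiquitin machinery, at 6.0, 6.3, 6.3, 6.2 and 6.3 in mutant and 5.0, 5.5, 5.3, 5.5 and 5.1 in control arrays on a dim probe set. Every mutant array lay above every control. The difference was 0.94, or 1.92-fold (interval 0.71 to 1.17, limma adjusted p = 0.00104). The other Traf1 probe set was 0.48 higher and was called too, but it was dimmer still, with means of 5.12 and 4.64. The call held without each array in turn. Like Traf1, 5 of the 6 ciliated epithelium markers had every mutant array above every control, and the sixth, Dnah5, overlapped (0.30, limma adjusted p = 0.0978). Whether Traf1 comes from those cells was not tested.

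Among 15 other MAP3 kinases, Map3k4, encoding MEKK4, which can also activate MKK3 and MKK6, was the 1 called gene. It read 9.2, 9.3, 9.3, 9.2 and 9.2 in mutant and 9.5, 9.7, 9.6, 9.5 and 9.5 in control arrays, all mutants below all controls. It fell by 0.32 (interval -0.45 to -0.19, limma adjusted p = 0.0103), and its other 3 probe sets differed by -0.24 to -0.28. The call held without each array in turn.

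Of 22 other p38 targets, 2 were lower. Cdc25b, encoding a phosphatase that starts mitosis and that the p38 and MK2 kinases can restrain, read 7.8, 7.8, 7.8, 7.9 and 7.8 in mutant and 8.3, 8.3, 8.2, 8.5 and 8.2 in control arrays, with no overlap. It fell by 0.48, or 1.39-fold (interval -0.62 to -0.34, limma adjusted p = 0.00229), and kept its call without each array in turn. Elavl1, encoding the RNA-binding protein HuR, fell by 0.22 on 1448151_at (10.26 ± 0.05 against 10.48 ± 0.04, SD, n = 5 each; limma adjusted p = 0.0273 over genes and 0.0516 over probe sets). Of its other 5 probe sets 1431037_a_at was called (-0.28, limma adjusted p = 0.0347 over probe sets), and the rest differed by -0.68 to -0.04. The call over genes was lost without mutant replicates 1, 2 or 3 or control replicates 3 or 4 (limma adjusted p = 0.0684, 0.0590, 0.0509, 0.0610 and 0.0531), when all probe sets of a gene were averaged (-0.27, adjusted p = 0.171), and with Eif2s3y as a covariate (-0.22, adjusted p = 0.0661).

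Of 20 phosphatases and scaffolds of the MAP kinases, Dusp8, a phosphatase of p38 and JNK kinases, was the 1 called gene. It read 7.6, 7.5, 7.4, 7.4 and 7.4 in mutant and 7.3, 7.0, 7.0, 7.2 and 7.2 in control arrays, with the lowest mutants just above the highest control. The difference was 0.32 (interval 0.16 to 0.48, limma adjusted p = 0.0255), and its other probe sets differed by 0.10 and 0.18. The call was lost without mutant replicates 1, 2 or 3 or control replicate 3 (limma adjusted p = 0.0622, 0.0559, 0.0507 and 0.0610), when arrays were centred on their medians (0.0535), when all probe sets of a gene were averaged (0.123), and with Eif2s3y as a covariate (0.0953).

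Dusp8 was the 1 called gene whose promoter held the full cAMP response element TGACGTCA, which reads the same on both strands and contains TGACGT. It is shown because it carries 2 copies, starting at positions -107 and -63 from the transcript start that the table uses, while 1.55% of the 32851 promoters hold at least 1 copy and 0.0304% hold 2 or more. The 30 bases from -118 to -89 (GRCm38.p6, chr7:142095373-142095402, minus strand) and from -74 to -45 (chr7:142095329-142095358) each have a copy in capitals, and both lie inside the whole span of the gene.

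Dusp8 at -107: gcccgctccgcTGACGTCAcctgcccccga
Dusp8 at -63: ttggctgcaggTGACGTCAggggctttttc

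The full element was in no promoter of the 9 branch genes found in the table. Among 99 genes of the 7 lists with a promoter in the table, 5 held it: Dusp1, Dusp8, Mapk10, Ppm1a and Ppm1d. Apart from Dusp8 these differed by 0.06, 0.16, 0.08 and -0.22, and none was called. A match is a run of letters and does not show that a factor binds there in the palate.

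**Figure D4:**
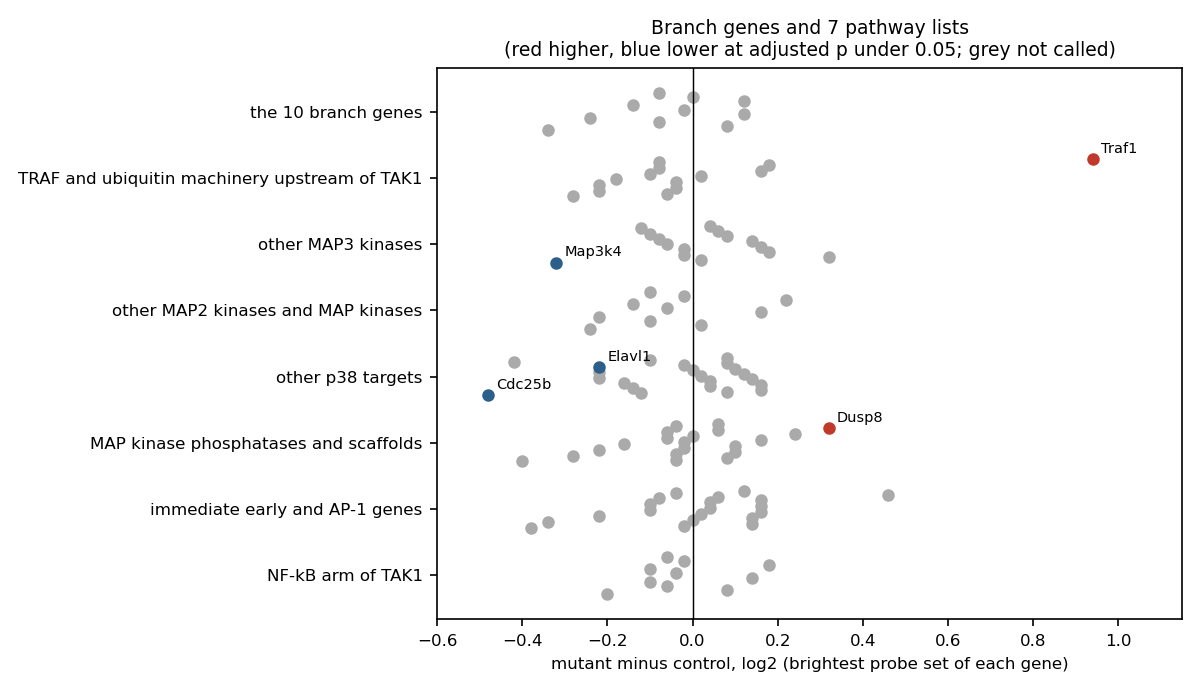
Difference between mutant and control (log2, x axis) of the 10 branch genes and of the 111 measured genes of 7 pathway lists (rows), 1 point per gene on its brightest probe set, with vertical position inside a row only to separate points. The 2 red and 3 blue points are the called genes, and no point of the branch is called; Traf1, 0.94 higher, lies farthest from 0.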

How the data were processed

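Total RNA of E14.5 secondary palate from 5 mutant and 5 control samples was hybridised to an Affymetrix mouse array, 1 array per sample. The deposited values are log2 values that the authors made with RMA, per the submitters' processing notes, rounded to 1 decimal, so steps of 0.1 limit small differences. No filter, batch or RMA version was found in those notes or in the labels. Of 45101 probe sets, 34958 had 1 symbol, 932 several and 9211 none. Of the 34958, 34754 were found in the RefSeq gene table (GRCm38.p6), used for names and for the gene spans given with the promoter matches. Promoters are from RefSeq.

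All probe sets were fitted in R 4.3.3 with limma 3.58.1 (lmFit, eBayes), mutant minus control, two-sided, with Benjamini-Hochberg adjustment over all probe sets, and again over 18194 genes, each on its brightest probe set. Calls are at adjusted p under 0.05. In 1 simulated set of 45101 probe sets, 50 were changed at each of 4 folds and the rest were not. The fit recovered 4 of 50 probe sets at 1.2-fold and 37 of 50 at 1.5-fold. At 2-fold it recovered 45 of 50 and at 3-fold 50 of 50. There were 6 false calls in the whole set. Most changes of 1.2-fold were thus missed in the simulation. In the real data 1468 probe sets were called, and the adjustment is less strict where more probe sets change. The recovered shares therefore do not carry over directly to the real data. Named are the 10 genes, 4 receptor or ligand genes, and from each list up to 4 called genes or the 1 with the smallest p; Mapk12, Fos, Jun, Egr1 and the genes with a promoter match were named after their values were seen. The genes and lists were chosen with earlier results of these data known. Alternatives were averaged probe sets, the brighter 60%, quantile normalization, median centring, a robust fit with an intensity trend, array weights, rounding noise, a replicate block, Eif2s3y as a covariate, an exact permutation test and leaving out each array. The number of arrays limits the precision.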

Additional observations from a re-analysis of the deposited data

Results flagged for a closer look

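In 7 of 64 groups of 5 arrays (32 probe sets in each genotype) 1 array lay far from the other 4 relative to the range of the group; chance alone gives about 1 in 20 groups. In 5 of these the other arrays shared 1 rounded value, so a step of 0.1 or 0.2 was enough: Traf6 1421376_at in control replicate 3 (6.3, others 6.1), Traf6 1435350_at in control replicate 5 (7.3, others 7.5), Tab2 1423462_at in mutant replicate 3 (11.4, others 11.2), Mapk14 1416703_at in control replicate 3 (10.2, others 10.1) and Atf2 1426583_at in mutant replicate 3 (10.6, others 10.5). The remaining pair were dim probe sets, Traf6 1446940_at in control replicate 3 (5.1, others 5.5 or 5.6) and Map3k7 1447801_x_at in mutant replicate 4 (2.6, others 2.9 or 3.0).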

How the results depend on the processing

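The count of called branch probe sets stayed at 0, and that of called branch genes at 0, under the alternatives that could give a call other than leaving out an array (the exact permutation test could not). Without 1 array they ranged from 0 to 1 and from 0 to 1, with Atf2 1437777_at called without control replicate 4 and Map3k7 without control replicate 2. The count of 5 called list genes was 9 with array weights and 3 to 7 when an array was left out, and the cause was not tested. Differences near 0 changed sign: with array weights Mapk14 1442364_at was -0.12 and Mapk11 1421925_at -0.03, with Eif2s3y as a covariate Traf6 1421377_at was 0.07, and with averaged probe sets Mapk11 was 0.01. Leaving out an array gave -0.10 to 0.07 for Traf6 1421377_at, -0.08 to 0.01 for Traf6 1443288_at, -0.10 to 0.03 for Tab1 1447692_x_at, -0.07 to 0.23 for Mapk14 1442364_at, -0.01 to 0.08 for Mapk11 1421925_at, -0.07 to 0.01 for Mapk11 1421926_at and Mapk11 as a gene, and -0.11 to 0.02 for Atf2 1427559_a_at. Replicate numbers did not pair the samples: deviations of same-numbered arrays correlated at -0.10 to 0.11, and 0 of 10 arrays correlated best with their own number. With the replicate number as a block the counts were 0 probe sets, 0 genes and 4 list genes, the calls of Dusp8 and Elavl1 being lost (limma adjusted p = 0.0534 and 0.0838). Rounding and 5 arrays per group limit what could be seen: the median half-width of the intervals over the 32 probe sets was 0.18.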
